A study of Homo sapiens with 16 samples.

Results

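The difference in the 24 h response to Staphylococcus aureus lipoteichoic acid (LTA) between differentiated HL-60 cells (dHL-60) and undifferentiated HL-60 cells (uHL-60) was measured by RNA sequencing. It rests on 6 of the 16 libraries of the series, chosen by cell state, treatment and time: 2 of dHL-60 given 1 µg/ml LTA for 24 h, 2 of untreated dHL-60 at 24 h, 1 of uHL-60 given 1 µg/ml LTA for 24 h and 1 of untreated uHL-60 at 24 h. The quantity compared is an interaction, the log2 change with LTA in dHL-60 minus the log2 change with LTA in uHL-60, so that a positive value means a higher response in dHL-60. The other 10 libraries were dHL-60 and uHL-60 at 4 h and dHL-60 given 10 µg/ml LTA, and entered through the shared estimate of the spread and, at 4 h, through a comparison of the times.

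HL-60 is a human promyelocytic leukaemia line whose cells mature towards neutrophils under several agents. LTA is a glycolipid-anchored polymer of the Gram-positive cell wall. It is sensed by TLR2 paired with TLR1 or TLR6, with CD14 as a coreceptor, and the adaptor MYD88 passes the signal through IRAK kinases to NF-κB. NF-κB then raises genes of inflammation together with its own inhibitors, such as the IκBα gene NFKBIA. Promyelocytes carry the enzymes of primary granules, while later neutrophil stages gain the receptors and adhesion molecules with which the cell meets bacteria.

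The 4 groups share the line and, per the labels, differ only in differentiation and LTA. The sources used here do not name the differentiation agent. Each uHL-60 group is 1 library, so no uHL-60 value has a replicate check, and in every test the lone uHL-60 libraries were assumed to vary like dHL-60 replicates. The labels do not say whether paired dHL-60 libraries are separate cultures, and the p-values then reflect a spread that may be technical. A batch of culture or sequencing that separates the cell states cannot be told apart from differentiation.

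At 24 h the libraries held 12199179 and 13734726 counts in treated dHL-60, 16530277 and 12072329 counts in untreated dHL-60, 15356752 counts in treated uHL-60 and 18791320 counts in untreated uHL-60. Levels are CPM, counts scaled to library size with TMM factors. The labels were checked on 11 markers. ITGAM, the αM integrin of neutrophils, stood at 64.5 and 66.7 CPM in untreated dHL-60, against 2.11 CPM in untreated uHL-60. CD14 stood at 146 and 138 CPM in untreated dHL-60, against 0.411 CPM in untreated uHL-60. The granule marker MPO remained abundant, with 13806 and 18430 CPM in untreated dHL-60 and 22733 CPM in untreated uHL-60. CXCR2, a chemokine receptor of mature neutrophils, had 20.6 and 23.1 CPM in untreated dHL-60 and 25.9 CPM in untreated uHL-60, so it did not separate the states. The granule protein genes ELANE and AZU1 went against the labels. ELANE had 1461 and 1768 CPM in untreated dHL-60 and 797 CPM in untreated uHL-60, and AZU1 had 472 and 593 CPM in untreated dHL-60 and 245 CPM in untreated uHL-60. MYB, with 267 and 241 CPM in untreated dHL-60 and 259 CPM in untreated uHL-60, did not separate the states. Receptor and adhesion markers other than CXCR2 thus followed the labels, and the granule markers did so only in part.

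Some genes that every cell uses also differed widely in level between the states. The elongation factor gene EEF1G had a mean of 0 CPM in untreated dHL-60 and 3851 CPM in untreated uHL-60 at 24 h, and the glycolytic gene ALDOA had 25.7 CPM in untreated dHL-60 and 1709 CPM in untreated uHL-60. Whether both states were counted in the same way was not tested. The interaction sets treated against untreated libraries within a state, so only a factor that is constant per gene and state would drop out of it. Whether it was constant between treated and untreated libraries was not tested, and the interactions of such genes are uncertain.

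The 24 h response differed between the cell states for a small share of genes, mostly in the upward direction. Of 12603 genes tested, 205 (1.63%) had an interaction past an adjusted p of 0.05, 170 of them higher in dHL-60 (1.35%) and 35 lower (0.278%). Of the 170 higher calls, 169 had a positive log2 change in dHL-60 and 157 had a uHL-60 ratio within 1.5-fold of 1. All 35 lower calls had a negative change in dHL-60, and 31 had a uHL-60 ratio within 1.5-fold of 1. Those shares, 92.4% of higher and 88.6% of lower calls, lie near the 93.2% of all genes tested whose uHL-60 ratio was within 1.5-fold of 1, so small uHL-60 ratios do not set the called genes apart. Where the uHL-60 ratio is near 1, the sign of the dHL-60 change in a called gene follows largely from the call itself. The median interaction over all genes tested was 0.01 log2. An unadjusted p under 0.05 was reached by 1787 genes, and the median SE of the interaction was 0.313 log2, against 0.184 log2 for the dHL-60 response alone. Leaving out any of 3 of the 4 dHL-60 libraries at 24 h cut the calls: 98 higher and 11 lower without untreated replicate 1, 97 and 13 without untreated replicate 2, and 77 and 11 without LTA replicate 1. Without LTA replicate 2 there were 185 higher and 37 lower calls.

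**Figure D1:**
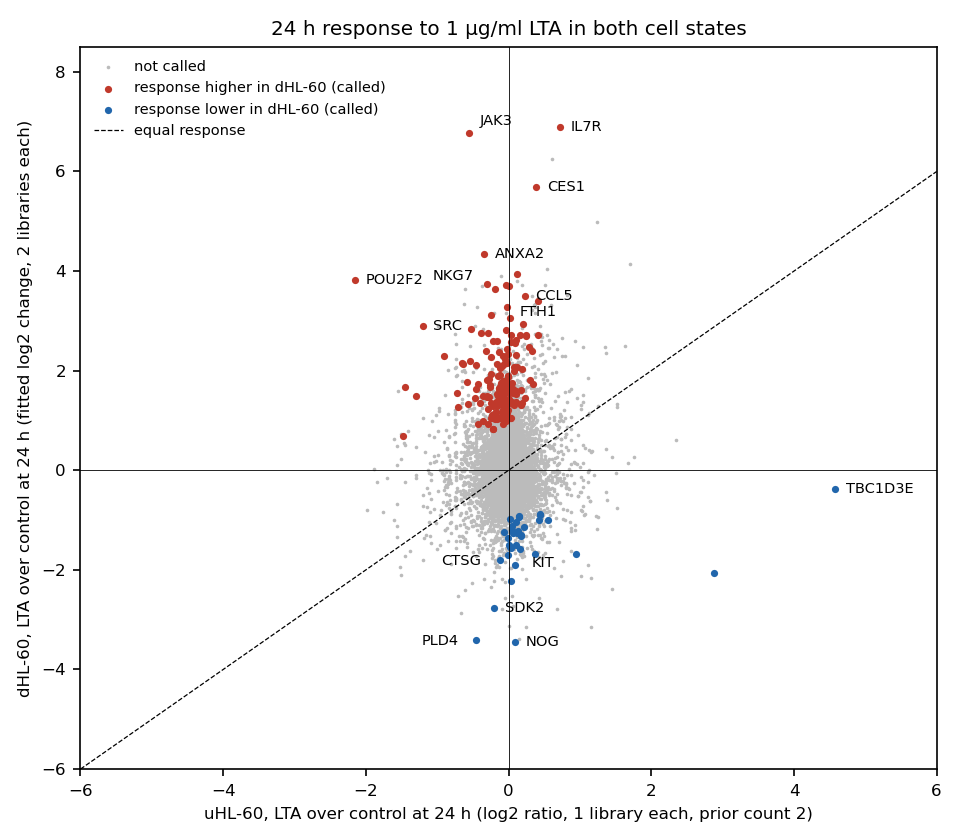
Log2 change with 1 µg/ml LTA at 24 h in dHL-60 (vertical axis, fitted over 2 libraries a group) against the log2 ratio in uHL-60 (horizontal axis, 1 library a group), 1 point a gene with at least 10 counts in each cell state and no group at 0. Red points had a higher and blue points a lower response in dHL-60 at an adjusted p under 0.05, the dashed line marks an equal response, and most coloured points lie near 0 on the uHL-60 axis.

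Within dHL-60, LTA raised 1589 genes (12.6%) and lowered 927 (7.36%) at 24 h. In uHL-60 only sizes can be given. Among 9020 genes with at least 5 CPM in a uHL-60 library, 5 (0.0554%) were more than 2-fold higher and 5 (0.0554%) more than 2-fold lower with LTA, whereas in dHL-60 267 (2.96%) of the same genes were past 2-fold higher and 137 (1.52%) past 2-fold lower. The middle 50% of these genes lay between -0.11 and 0.10 log2 in uHL-60 and between -0.26 and 0.23 log2 in dHL-60. Those 2 spreads are not matched in precision, since the dHL-60 value averages 2 libraries a group. The uHL-60 ratio used a prior count of 2, and the dHL-60 change did not. The 5 CPM limit was set on uHL-60 alone, so some dHL-60 changes past 2-fold rest on few counts. GALNT4, for example, was past 2-fold with 0.585 and 0.526 CPM in treated and 0.107 and 0.299 CPM in untreated dHL-60.

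The 10 genes past 2-fold in uHL-60 are named here after their values were seen, and all share sequence with another locus. The 5 higher ones were EEF1E1-BLOC1S5, BLOC1S5-TXNDC5, TBC1D3E, FAM72D and GALNT4. The 5 lower ones were TBC1D3L, LY75-CD302, SMN2, ANKHD1-EIF4EBP3 and POC1B-GALNT4. Hyphenated symbols are read-through transcripts that share exons with their parent genes, and TBC1D3, FAM72 and SMN genes have near-identical copies, and GALNT4 lies within a read-through transcript, so these values are uncertain. BLOC1S5-TXNDC5 had 304 counts in treated uHL-60 and 1 count in untreated uHL-60, and 0 CPM in all 4 dHL-60 libraries.

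The TBC1D3 copies show this directly. TBC1D3E (chromosome 17, 38124106 to 38138868, GRCh38) had 112 counts in treated uHL-60 and 3 counts in untreated uHL-60, and its interaction was -5.80 ± 1.09 log2 (SE; adjusted p = 0.00428). TBC1D3L (chromosome 17, 37978155 to 37989060) ran the other way, with 0 counts in treated uHL-60 and 125 counts in untreated uHL-60. Its interaction was at least 4.90 log2 with treated uHL-60 set to a floor of 3 counts (adjusted p = 0.0468). Summed over both copies the counts were 112 in treated uHL-60 and 128 in untreated uHL-60, and 24 and 24 in treated dHL-60 against 41 and 26 in untreated dHL-60. The calls of these 2 genes are therefore uncertain, and that of TBC1D3L was lost without any of the 4 dHL-60 libraries at 24 h, at adjusted p between 0.0633 and 0.182, and at 0.0538 with upper-quartile scaling.

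At the receptor level, TLR2 and its partner TLR1 responded more in dHL-60. Of 18 listed pattern receptors and cofactors 15 were tested, 2 were called higher and 0 lower, and the median interaction was 1.23 log2, or 0.53 with groups at 0 set to the floor. For this and every later list, the base over all genes tested was 1.35% called higher and 0.278% lower in the interaction. In the dHL-60 response it was 12.6% that rose and 7.36% that fell. A single called member describes that gene and not its list. TLR2 (chromosome 4, 153684280 to 153710637) had 158 and 123 CPM in treated dHL-60 and 64.1 and 49.2 CPM in untreated dHL-60, with 17.7 CPM in treated and 16.8 CPM in untreated uHL-60. All treated dHL-60 libraries lay above the untreated ones, and the uHL-60 libraries differed by a fold of 1.05 (95% exact binomial interval 0.896 to 1.24, counting error only). The TLR2 interaction was 1.23 ± 0.28 log2 (adjusted p = 0.0431). TLR1 had 42.3 and 33.6 CPM in treated dHL-60 and 13.86 and 11.95 CPM in untreated dHL-60, with 4.98 CPM in treated and 5.35 CPM in untreated uHL-60, an interaction of 1.65 ± 0.38 log2 (adjusted p = 0.0436). Both were lost without untreated replicate 2 (adjusted p = 0.106 and 0.103 for TLR2 and TLR1) and without LTA replicate 1 (0.145 and 0.132). TLR1 was also lost without untreated replicate 1 (0.0688) and with upper-quartile scaling (0.0538).

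TLR6 and CD14 rose in dHL-60 but in this test did not reach the threshold for the interaction. TLR6, the other partner of TLR2, had 34.0 and 28.7 CPM in treated dHL-60 and 14.02 and 12.18 CPM in untreated dHL-60, against 2.80 CPM in treated and 3.14 CPM in untreated uHL-60 (1.42 ± 0.43 log2, adjusted p = 0.119). CD14 had 562 and 618 CPM in treated dHL-60 and 146 and 138 CPM in untreated dHL-60. Only 3 counts in treated and 8 counts in untreated uHL-60 were left to set against this, a fold of 0.454 with an interval of 0.0776 to 1.89. The CD14 interaction was 3.16 ± 0.88 log2 (adjusted p = 0.0668, and 0.0457 with DESeq2). CLEC7A, NOD2, TLR8 and LY96, an accessory protein of TLR4, also rose in dHL-60, which makes 8 of the 15 receptors, while 0 fell.

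Behind the receptor, 1 of 21 listed MYD88 pathway genes was called higher and 0 lower, with a median interaction of 0.32 log2. IKBKE, an IκB kinase-related kinase, had 87.8 and 58.8 CPM in treated dHL-60 and 27.1 and 26.0 CPM in untreated dHL-60, with 51.5 CPM in treated and 55.4 CPM in untreated uHL-60. Its level in uHL-60 was above that of untreated dHL-60, and its interaction was 1.57 ± 0.33 log2 (adjusted p = 0.0295). MYD88 itself had 228 and 209 CPM in treated dHL-60 and 110 and 125 CPM in untreated dHL-60, with 28.01 CPM in treated and 27.77 CPM in untreated uHL-60. The MYD88 interaction was 0.88 ± 0.25 log2 (adjusted p = 0.104), short of the threshold in this test and past it with DESeq2 (adjusted p = 0.0444). The IKBKE call was lost without either untreated library or without LTA replicate 1, at adjusted p between 0.067 and 0.0895.

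The NF-κB list held subunits, inhibitors and feedback genes. All 25 listed members were tested, 3 were called higher and 0 lower, and the median interaction was 1.02 log2; 16 rose and 0 fell in dHL-60. NFKBIA (chromosome 14, 35401513 to 35404749) had 495 and 352 CPM in treated dHL-60 and 93.1 and 79.9 CPM in untreated dHL-60, with 21.1 CPM in treated and 22.3 CPM in untreated uHL-60. Its dHL-60 groups were far apart and its uHL-60 fold was 0.948 (0.82 to 1.10), which gave an interaction of 2.37 ± 0.47 log2 (adjusted p = 0.0237). SOD2, the mitochondrial superoxide dismutase, had 311 and 200 CPM in treated dHL-60 and 84.8 and 61.6 CPM in untreated dHL-60, with 37.8 CPM in treated and 39.5 CPM in untreated uHL-60 (1.86 ± 0.37 log2, adjusted p = 0.0237). ZC3H12A encodes regnase-1, an RNase that cuts messages of inflammation. It had 71.9 and 46.9 CPM in treated dHL-60 and 17.2 and 21.0 CPM in untreated dHL-60, with 17.2 CPM in treated and 18.9 CPM in untreated uHL-60 (1.77 ± 0.38 log2, adjusted p = 0.0351).

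In each of these 3 genes LTA replicate 1 was the higher treated library, and without it the adjusted p was 0.083 for NFKBIA, 0.0766 for SOD2 and 0.103 for ZC3H12A. Without untreated replicate 2 the values were 0.0711, 0.0711 and 0.0577 in the same order. Without untreated replicate 1, NFKBIA (0.0523) and ZC3H12A (0.107) were lost as well. TNFAIP3, the ubiquitin editor A20, had 1.87 ± 0.50 log2 (adjusted p = 0.0827) and NFKB1, the p105 subunit, 0.73 ± 0.22 log2 (adjusted p = 0.124), both below the threshold.

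NFKBIA is a textbook NF-κB target, and the 120 bases before its start are printed here with the match to the motif GGGNNNTTCC in capitals (RefSeq, GRCh38.p14, minus strand, chr14:35404750-35404869).
NFKBIA promoter: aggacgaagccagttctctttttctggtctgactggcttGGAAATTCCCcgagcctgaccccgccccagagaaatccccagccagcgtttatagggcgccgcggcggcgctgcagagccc
The match begins 81 bases before the start and reads as the motif on the opposite strand. The 300-base promoters of SOD2, ZC3H12A and TNFSF10, from 250 bases before to 50 after the start, held no match, which says only that these letters are not in those windows. The motif was searched on both strands and stood in 2289 of 35116 promoters (6.52%). A match is a description of the sequence and was not tied to binding.

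Many of the secreted signals had low counts in uHL-60. Of 26 cytokine genes tested, 14 had under 10 counts over both uHL-60 libraries, 1 was called higher and 0 lower, and the median interaction was 1.22 log2, or 0.37 with groups at 0 set to the floor. TNFSF10, the death ligand TRAIL, had 33.1 and 30.3 CPM in treated dHL-60 and 7.81 and 7.10 CPM in untreated dHL-60, with 3.42 CPM in treated and 3.14 CPM in untreated uHL-60 (1.96 ± 0.38 log2, adjusted p = 0.0209). Without untreated replicate 2 its adjusted p was 0.0577 and without LTA replicate 1 it was 0.0666. IL1B, encoding interleukin-1β, rose in dHL-60 with 105 and 79.8 CPM in treated and 16.58 and 11.95 CPM in untreated libraries, but its interaction of 2.21 ± 0.62 log2 missed the threshold (adjusted p = 0.0967). TNF had an interaction of 0.94 ± 0.53 log2 (adjusted p = 0.472).

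Of the chemokines, 14 of 19 rose and 0 fell in dHL-60. The interaction was called higher for 1 and lower for 0, and 14 of the 19 had under 10 counts in uHL-60; the median interaction was 3.07 log2, or 2.38 at the floor. CCL5 (chromosome 17, 35871491 to 35880360), the chemokine RANTES, had 129 and 153 CPM in treated dHL-60 and 12.7 and 12.1 CPM in untreated dHL-60, with 12.2 CPM in treated and 10.4 CPM in untreated uHL-60. Untreated dHL-60 and both uHL-60 libraries thus lay at the same level, and only treated dHL-60 stood above it. The CCL5 interaction was 3.27 ± 0.28 log2 (adjusted p = 8.8e-05) and stayed called without each of the 4 dHL-60 libraries. CCL2, which draws monocytes, had 1077 and 964 CPM in treated dHL-60 and 146 and 127 CPM in untreated dHL-60, against 1.93 CPM in treated and 1.39 CPM in untreated uHL-60 (2.43 ± 0.62 log2, adjusted p = 0.0746). CXCL8, encoding interleukin-8, had 1.84 ± 0.66 log2 (adjusted p = 0.197).

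Among interferon-stimulated genes 29 were tested, 3 were called higher and 0 lower, with a median interaction of 1.13 log2, and 15 rose and 0 fell in dHL-60. IRF7, a transcription factor of the interferon response, had 41.0 and 44.6 CPM in treated dHL-60 and 14.7 and 15.6 CPM in untreated dHL-60, with 6.04 CPM in treated and 6.68 CPM in untreated uHL-60 (1.65 ± 0.34 log2, adjusted p = 0.0284). PARP9 had 24.9 and 22.0 CPM in treated dHL-60 and 7.92 and 7.70 CPM in untreated dHL-60, with 12.8 CPM in treated and 12.5 CPM in untreated uHL-60 (1.55 ± 0.30 log2, adjusted p = 0.0195). PARP14 had an interaction of 1.13 ± 0.24 log2 (adjusted p = 0.0343). Both are ADP-ribosyltransferase family members. The classical antiviral genes ISG15 (-0.11 ± 0.48 log2, adjusted p = 0.992) and MX1 (0.56 ± 0.67 log2, adjusted p = 0.795) were not called, in the interaction or in dHL-60. IRF7 was lost without any of the 4 libraries (adjusted p 0.0514 to 0.0715), PARP9 without either untreated library or LTA replicate 1 (0.0517 to 0.0775), and PARP14 without untreated replicate 2 or either LTA library (0.0505 to 0.103).

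The inflammasome list gave 1 higher and 0 lower calls of 11, with a median interaction of 0.50 log2. Its called member CASP1, the protease that matures interleukin-1β, had 119 and 96.5 CPM in treated dHL-60 and 37.2 and 32.4 CPM in untreated dHL-60, with 29.9 CPM in treated and 28.5 CPM in untreated uHL-60. As with CCL5, the untreated states lay close together and only treated dHL-60 was raised; the CASP1 interaction was 1.56 ± 0.25 log2 (adjusted p = 0.00653). Costimulation and antigen presentation gave 1 higher and 0 lower calls of 22 and a median of 0.49 log2. TNFRSF9, the costimulatory receptor 4-1BB, had 83.5 and 55.0 CPM in treated dHL-60 and 5.72 and 3.06 CPM in untreated dHL-60, with 10 counts in treated and 11 counts in untreated uHL-60 (3.80 ± 0.83 log2, adjusted p = 0.0436). Its adjusted p was 0.0521 without untreated replicate 2 and 0.0661 without LTA replicate 1.

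**Figure D2:**
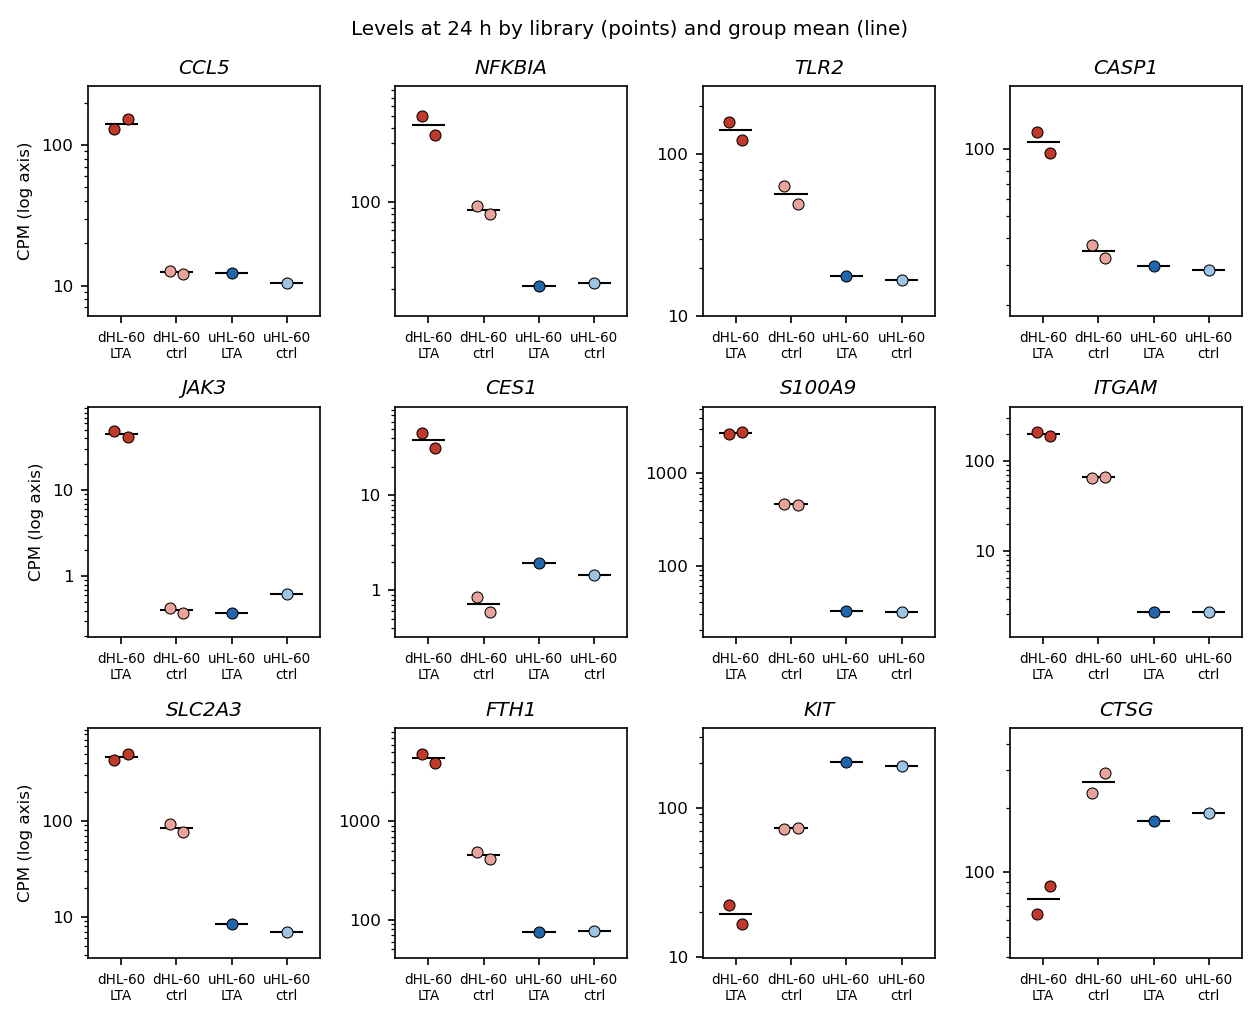
Level in CPM (log axis) of 12 genes at 24 h in each library, in dHL-60 with LTA, dHL-60 controls, uHL-60 with LTA and uHL-60 controls, with points for libraries and lines for group means. Treated dHL-60 lies apart from untreated dHL-60 in every panel, the LTA and control libraries of uHL-60 lie close together, and KIT and CTSG are the 2 genes lower with LTA in dHL-60.

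Genes of later neutrophil stages gave the most higher calls of any list by number, but the lists differ in size. Their share was 26.5% of tested members, against 33.3% of 6 lymphocyte markers, 25% of 8 NADPH oxidase genes and 1.35% of all genes tested. Of 34 tested, 9 were called higher, namely FPR2, FCGR1A, FCGR2A, CSF2RB, PTAFR, ITGAM, ITGB2, S100A8 and S100A9, and 0 lower, with a median interaction of 0.96 log2. In dHL-60 22 rose and 2, LTB4R and CSF3R, fell. S100A9 and S100A8 encode the subunits of calprotectin, an antimicrobial protein that binds metal ions. S100A9 had 2697 and 2799 CPM in treated dHL-60 and 470 and 454 CPM in untreated dHL-60, with 32.1 CPM in treated and 31.4 CPM in untreated uHL-60 (2.54 ± 0.32 log2, adjusted p = 0.00179). S100A8 had 1725 and 1817 CPM in treated dHL-60 and 293 and 245 CPM in untreated dHL-60, with 10.8 CPM in treated and 9.05 CPM in untreated uHL-60 (2.47 ± 0.34 log2, adjusted p = 0.00292). CSF2RB, the signalling chain shared by receptors for GM-CSF, interleukin-3 and interleukin-5, had 607 and 475 CPM in treated dHL-60 and 155 and 133 CPM in untreated dHL-60, with 53.7 CPM in treated and 58.2 CPM in untreated uHL-60 (2.02 ± 0.31 log2, adjusted p = 0.00474). These 3 calls held without each of the 4 dHL-60 libraries.

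ITGAM had 209 and 188 CPM in treated dHL-60 and 64.5 and 66.7 CPM in untreated dHL-60, with 2.12 CPM in treated and 2.11 CPM in untreated uHL-60. Its interaction was 1.59 ± 0.32 log2 (adjusted p = 0.0219), and 0.0648 without LTA replicate 1. The fMLP receptor FPR1 showed a change of the same kind in dHL-60, at 222 and 198 CPM in treated and 32.3 and 30.4 CPM in untreated libraries. With 19 counts in treated and 16 counts in untreated uHL-60, its interaction of 2.22 ± 0.58 log2 did not pass (adjusted p = 0.0817). CXCR2 had 21.6 and 17.7 CPM in treated dHL-60 and 20.6 and 23.1 CPM in untreated dHL-60, with 23.4 CPM in treated and 25.9 CPM in untreated uHL-60, and was not called. The S100, CSF2RB and ITGAM changes did not extend to CXCR2 or to CSF3R, the G-CSF receptor, whose dHL-60 level fell by 0.62 log2.

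The phagocyte NADPH oxidase, which makes superoxide, gave 2 higher and 0 lower calls of 8, with a median interaction of 0.53 log2. CYBB, its membrane subunit gp91phox, had 977 and 816 CPM in treated dHL-60 and 413 and 367 CPM in untreated dHL-60, with 92.5 CPM in treated and 93.3 CPM in untreated uHL-60 (1.21 ± 0.27 log2, adjusted p = 0.0361). CYBB was lost without either untreated library or LTA replicate 1 (adjusted p 0.0644 to 0.13).

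Primary granule proteins moved the other way. Of 19 tested, 0 were called higher and 1, CTSG, lower, with a median interaction of -1.05 log2, and in dHL-60 11 fell and 0 rose. CTSG (chromosome 14, 24573518 to 24576250), the protease cathepsin G, had 64.1 and 86.4 CPM in treated dHL-60 and 235 and 293 CPM in untreated dHL-60, with 173 CPM in treated and 189 CPM in untreated uHL-60. Its treated dHL-60 libraries lay below all others, and the interaction was -1.68 ± 0.29 log2 (adjusted p = 0.00876). MPO, which makes hypochlorous acid, had 5648 and 8117 CPM in treated dHL-60 and 13806 and 18430 CPM in untreated dHL-60, with 20458 CPM in treated and 22733 CPM in untreated uHL-60. It fell in dHL-60, by 1.23 ± 0.22 log2, but its interaction of -1.08 ± 0.37 log2 was not called in this test (adjusted p = 0.184, and 0.0456 with DESeq2). AZU1, PRTN3 and ELANE also fell in dHL-60, with interactions of -1.76 ± 0.42 (adjusted p = 0.0516), -2.11 ± 0.61 (adjusted p = 0.112) and -1.61 ± 0.48 log2 (adjusted p = 0.119). In bulk RNA, fewer cells of a kind and less RNA per cell cannot be told apart.

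Progenitor regulators followed the granule genes, with 0 of 19 called higher, 1 lower, a median of -0.68 log2, and 10 falling and 0 rising in dHL-60. KIT (chromosome 4, 54657957 to 54740715), the stem cell factor receptor, had 22.3 and 16.6 CPM in treated dHL-60 and 72.1 and 73.1 CPM in untreated dHL-60, with 201 CPM in treated and 189 CPM in untreated uHL-60. Untreated dHL-60 lay below uHL-60 and treated dHL-60 lower still. The KIT interaction was -1.99 ± 0.30 log2 (adjusted p = 0.00417), and it and CTSG held without each of the 4 libraries. MYB, a transcription factor of immature blood cells, had 103 and 142 CPM in treated dHL-60 and 267 and 241 CPM in untreated dHL-60, with 265 CPM in treated and 259 CPM in untreated uHL-60 (-1.09 ± 0.34 log2, adjusted p = 0.136).

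Cell cycle genes were called in both directions. Of 42 tested, 8 were called higher, MKI67, CCND3, CDC25B, E2F2, FOXM1, TK1, CDKN2C and CDKN2D, and 1, CDK6, lower, with a median interaction of 0.58 log2; 22 rose and 3 fell in dHL-60. The called members do not point one way in function, since CDKN2C and CDKN2D encode inhibitors of CDK4 and CDK6. CDKN2D had 17.2 and 16.4 CPM in treated dHL-60 and 4.23 and 4.86 CPM in untreated dHL-60, with 6.10 CPM in treated and 6.12 CPM in untreated uHL-60 (1.90 ± 0.40 log2, adjusted p = 0.0322). CCND3, cyclin D3, had 203 and 181 CPM in treated dHL-60 and 50.7 and 62.5 CPM in untreated dHL-60, with 55.6 CPM in treated and 59.6 CPM in untreated uHL-60 (1.86 ± 0.24 log2, adjusted p = 0.00211). CDC25B, a phosphatase that activates cyclin-dependent kinases, had 39.1 and 33.3 CPM in treated dHL-60 and 13.6 and 14.3 CPM in untreated dHL-60, with 28.9 CPM in treated and 32.3 CPM in untreated uHL-60 (1.53 ± 0.28 log2, adjusted p = 0.0147). CDKN2D was lost without either untreated library or LTA replicate 1 (adjusted p 0.0603 to 0.094) and CDC25B without LTA replicate 1 (0.0613).

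Glycolysis and hypoxia genes gave 5 higher and 0 lower calls of 29, namely SLC2A3, HK1, ALDOA, SLC16A3 and ADM, with a median interaction of 0.79 log2. The ALDOA call is uncertain, since untreated dHL-60 had only 25.7 CPM of it against 1709 CPM in untreated uHL-60. All 29 interactions were positive, against 6378 of the 12603 genes tested. In dHL-60 21 rose and 0 fell. SLC2A3, the glucose transporter GLUT3, had 438 and 503 CPM in treated dHL-60 and 92.3 and 77.1 CPM in untreated dHL-60, with 8.47 CPM in treated and 6.89 CPM in untreated uHL-60 (2.17 ± 0.31 log2, adjusted p = 0.00341). HK1, which starts glycolysis by phosphorylating glucose, had 53.2 and 45.3 CPM in treated dHL-60 and 13.3 and 16.4 CPM in untreated dHL-60, with 2.05 CPM in treated and 2.83 CPM in untreated uHL-60 (2.20 ± 0.41 log2, adjusted p = 0.0149). ADM, the hypoxia-induced peptide adrenomedullin, had 38.8 and 46.1 CPM in treated dHL-60 and 14.9 and 13.9 CPM in untreated dHL-60. In uHL-60 ADM was lower with LTA, at 2.37 CPM in the treated and 4.01 CPM in the untreated library, a fold of 0.59 (0.389 to 0.88), and its interaction was 2.32 ± 0.37 log2 (adjusted p = 0.00564).

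The oxidative stress and iron list gave 2 higher and 0 lower calls of 22, with a median of 0.37 log2. FTH1 (chromosome 11, 61964285 to 61967634), the heavy chain of the iron store ferritin, had 4801 and 3893 CPM in treated dHL-60 and 482 and 419 CPM in untreated dHL-60, with 74.9 CPM in treated and 75.9 CPM in untreated uHL-60. That interaction was 3.29 ± 0.38 log2 (adjusted p = 0.00103), although FTH1 has many processed copies in the genome, which makes its level uncertain. SLC7A11, the cystine importer, had 88.3 and 53.7 CPM in treated dHL-60 and 15.0 and 8.89 CPM in untreated dHL-60, with 11.4 CPM in treated and 10.6 CPM in untreated uHL-60 (2.45 ± 0.50 log2, adjusted p = 0.0283). Its adjusted p was 0.0675 without untreated replicate 2 and 0.0815 without LTA replicate 1.

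Of 26 survival and death genes 1 was called higher and 0 lower, with a median interaction of 0.38 log2. PIM1 (chromosome 6, 37170152 to 37175428), a survival kinase downstream of cytokine receptors, had 121 and 133 CPM in treated dHL-60 and 15.0 and 14.3 CPM in untreated dHL-60, with 5.29 CPM in treated and 6.27 CPM in untreated uHL-60. Its interaction was 3.36 ± 0.32 log2 (adjusted p = 0.000189) and held without each of the 4 libraries. Cholesterol synthesis and uptake gave 0 calls of 25, with a median of 0.47 log2, and 5 rose and 0 fell in dHL-60. Ribosome biogenesis also gave 0 calls of 32, with a median of -0.28 log2, and 0 rose and 7 fell in dHL-60. The 26 reference genes had 0 calls and a median of -0.03 log2.

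**Figure D3:**
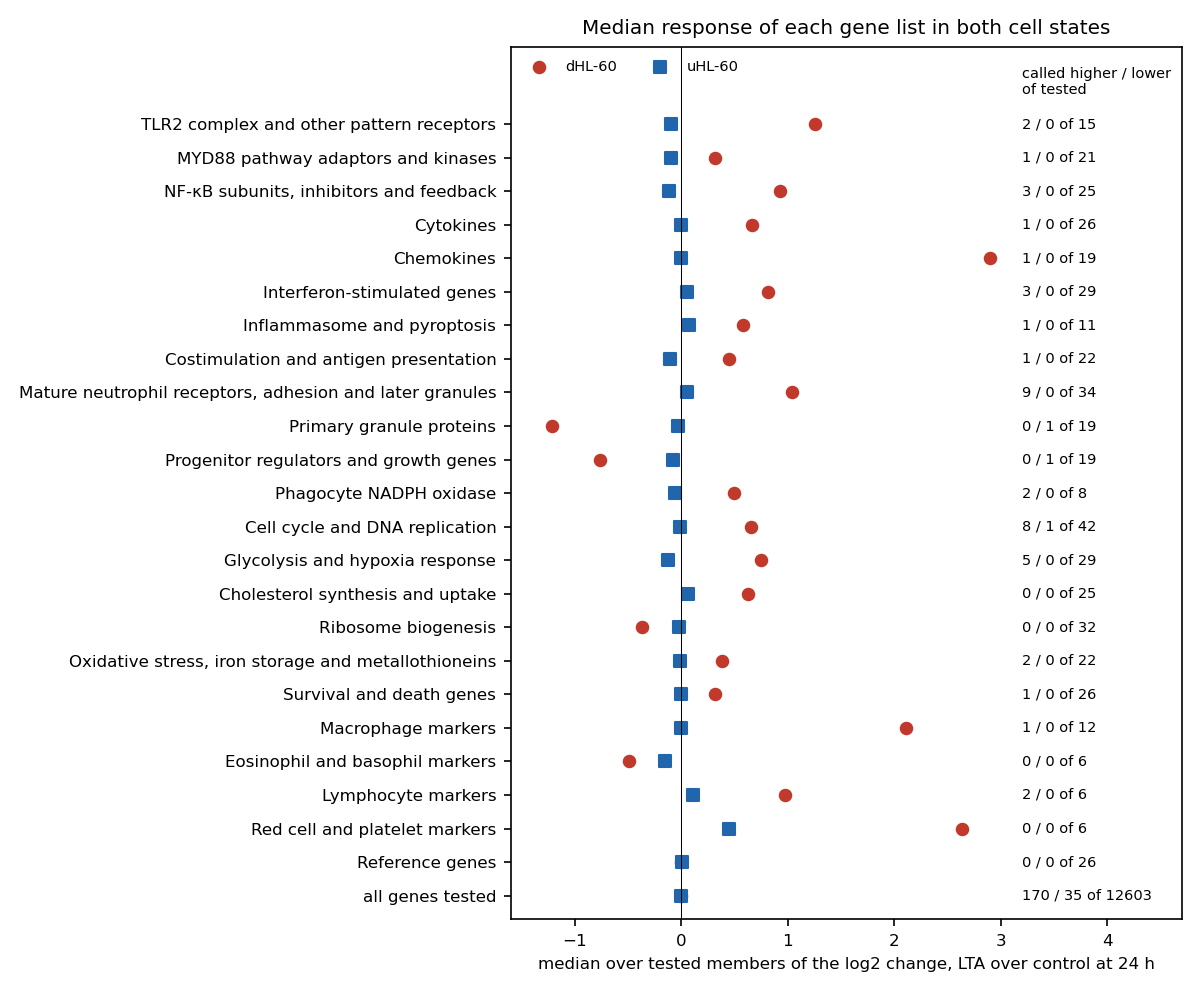
Median log2 change with LTA at 24 h over the tested members of each gene list, in dHL-60 (red circles) and uHL-60 (blue squares), with the number of members called higher and lower in the interaction at the right. The uHL-60 medians of lists lie near 0, the largest being 0.44 in the red cell and platelet list of 6 genes, while the dHL-60 medians run from -1.21 for primary granule proteins to 2.90 for chemokines. The uHL-60 ratio used a prior count of 2, which pulls ratios of low counts towards 0. Under 10 uHL-60 counts were held by 14 of 19 chemokines, 14 of 26 cytokines and 8 of 12 macrophage markers, so those uHL-60 medians say little.

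Among the 10 largest positive interactions, JAK3, CES1 and ANXA2 were low in all groups but treated dHL-60. JAK3 (chromosome 19, 17824782 to 17847982), the kinase of the common γ chain cytokine receptors, had 48.5 and 41.7 CPM in treated dHL-60 and 0.428 and 0.374 CPM in untreated dHL-60, with 0.374 CPM in treated and 0.617 CPM in untreated uHL-60. On only 6 counts in treated and 12 counts in untreated uHL-60, its interaction was 7.48 ± 0.86 log2 (adjusted p = 0.00103). CES1 (chromosome 16, 55802851 to 55833096), a carboxylesterase of lipid and drug metabolism, had 45.8 and 31.7 CPM in treated dHL-60 and 0.856 and 0.598 CPM in untreated dHL-60, with 1.93 CPM in treated and 1.44 CPM in untreated uHL-60 (5.26 ± 0.62 log2, adjusted p = 0.00103). ANXA2, a membrane-binding annexin, had 53.1 and 52.6 CPM in treated dHL-60 and 2.67 and 2.47 CPM in untreated dHL-60, with 0.498 CPM in treated and 0.668 CPM in untreated uHL-60 (4.77 ± 0.84 log2, adjusted p = 0.0123). All treated dHL-60 libraries stood at least 10-fold above every other library for these 3 genes, and all 3 calls held without each of the 4 libraries.

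SRC, the tyrosine kinase, had 22.0 and 18.8 CPM in treated dHL-60 and 2.41 and 3.14 CPM in untreated dHL-60, with 3 counts in treated and 12 counts in untreated uHL-60 (4.57 ± 0.80 log2, adjusted p = 0.00417). LAMB3, a laminin chain, had 10.5 and 9.81 CPM in treated dHL-60 and 0.909 and 0.672 CPM in untreated dHL-60, with 7 counts in treated and 10 counts in untreated uHL-60 (3.87 ± 0.71 log2, adjusted p = 0.0145). Both held without each of the 4 dHL-60 libraries, which does not check the uHL-60 counts. The SRC interaction mixes a rise in dHL-60 with a lower count in treated than in untreated uHL-60. POU2F2, the transcription factor OCT2, had 27.2 and 14.9 CPM in treated dHL-60 and 1.284 and 1.718 CPM in untreated dHL-60. Since it rested on 1 count in treated and 15 counts in untreated uHL-60, a fold of 0.0807 with an interval of 0.00192 to 0.525, its interaction of 7.28 ± 2.30 log2 (adjusted p = 0.0216) mixes a rise in dHL-60 with a low value in uHL-60, and it was 0.0553 without untreated replicate 1. SERPINB9, an inhibitor of granzyme B, had 2.41 and 0.987 CPM in treated dHL-60 and 0 counts in untreated dHL-60, at least 17.8-fold higher with LTA when untreated dHL-60 is set to 3 counts. In uHL-60 it was already present, at 9.21 CPM in the treated and 9.15 CPM in the untreated library, so its interaction was at least 4.14 log2 (adjusted p = 0.012, and 0.0683 without untreated replicate 1).

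NKG7 and IL7R are 2 of the 6 tested lymphocyte markers, of which 2 were called higher and 0 lower. NKG7 (chromosome 19, 51371620 to 51372654), a granule membrane protein of cytotoxic cells, had 150 and 113 CPM in treated dHL-60 and 10.4 and 9.34 CPM in untreated dHL-60, with 6.91 CPM in treated and 8.54 CPM in untreated uHL-60. Its interaction was 4.04 ± 0.35 log2 (adjusted p = 8.8e-05) and held without each of the 4 libraries. IL7R, the interleukin-7 receptor, had 8.26 and 8.62 CPM in treated dHL-60, with 2 counts over both untreated dHL-60 libraries and 11 counts in treated and 7 counts in untreated uHL-60 (5.98 ± 1.58 log2, adjusted p = 0.0461). It was lost without any of the 4 libraries (adjusted p 0.0534 to 0.132) and with upper-quartile scaling (0.0533). The summed level of the 15 lymphocyte markers in the table was 161 and 124 CPM in treated dHL-60, 12.2 and 11.1 CPM in untreated dHL-60, 12.8 CPM in treated uHL-60 and 13.1 CPM in untreated uHL-60, and NKG7 made up most of it. CD3D and CD8A of T cells, MS4A1 and PAX5 of B cells and NCAM1 of natural killer cells were at 0 in all 6 libraries.

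Macrophage markers moved with LTA in dHL-60. The summed level of the 20 listed was 278 and 274 CPM in treated dHL-60, 63.7 and 64.6 CPM in untreated dHL-60, 19.5 CPM in treated uHL-60 and 21.0 CPM in untreated uHL-60. Of the 12 tested, 1 was called higher and 0 lower, 7 rose in dHL-60, and 8 had under 10 counts in uHL-60; the median interaction was 0.94 log2, or 1.86 at the floor. CSF1R, the M-CSF receptor of monocytes and macrophages, had 94.8 and 109 CPM in treated dHL-60 and 23.4 and 22.9 CPM in untreated dHL-60, with 2.05 CPM in treated and 2.31 CPM in untreated uHL-60 (2.31 ± 0.49 log2, adjusted p = 0.0301). That call was lost without either untreated library or LTA replicate 1 (adjusted p 0.0553 to 0.0659). MSR1, CD209 and TREM2 were at 0 in both untreated dHL-60 libraries, and MRC1, MARCO and FOLR2 were at 0 in treated replicate 1. What part monocyte- or macrophage-like cells had in the dHL-60 response was not tested.

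Eosinophil and basophil markers summed to 15.9 and 27.3 CPM in treated dHL-60, 30.7 and 30.3 CPM in untreated dHL-60, 4158 CPM in treated uHL-60 and 4371 CPM in untreated uHL-60, with PRG2, eosinophil major basic protein, making up most of the uHL-60 level. Their 6 tested members gave 0 calls and a median interaction of -0.24 log2. Red cell and platelet markers stayed between 3.362 and 11.64 CPM in sum in the 6 libraries, with ALAS2 and PF4 at 0 in all of them and 0 calls of 6.

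TBC1D3E had the largest negative interaction in size, and 9 further genes were named by the same rule. PLD4, a lysosomal nuclease, had 0.585 and 0.658 CPM in treated dHL-60 and 6.74 and 6.72 CPM in untreated dHL-60, with 3.49 CPM in treated and 4.83 CPM in untreated uHL-60 (-2.94 ± 0.50 log2, adjusted p = 0.0069). SDK2, a cell adhesion molecule, had 1.83 and 3.69 CPM in treated dHL-60 and 16.4 and 21.7 CPM in untreated dHL-60, with 37.6 CPM in treated and 43.2 CPM in untreated uHL-60 (-2.56 ± 0.45 log2, adjusted p = 0.011). Both fell in dHL-60, and both calls held without each of the 4 libraries. NOG, the BMP antagonist noggin, had 0.585 and 0.592 CPM in treated dHL-60 and 6.05 and 6.95 CPM in untreated dHL-60, with 0.996 CPM in treated and 0.926 CPM in untreated uHL-60 (-3.55 ± 0.75 log2, adjusted p = 0.0312). MZB1, an endoplasmic reticulum cochaperone known from B cells, had 0.439 and 0.658 CPM in treated dHL-60 and 2.57 and 2.69 CPM in untreated dHL-60, with 19.5 CPM in treated and 19.0 CPM in untreated uHL-60 (-2.27 ± 0.51 log2, adjusted p = 0.0351).

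SPON2, a secreted matrix protein, had 5.78 and 9.02 CPM in treated dHL-60 and 23.3 and 24.4 CPM in untreated dHL-60, with 1.12 CPM in treated and 0.514 CPM in untreated uHL-60 (-2.79 ± 0.67 log2, adjusted p = 0.0464). ANO7, of the anoctamin family, had 82.3 and 86.5 CPM in treated dHL-60 and 243 and 304 CPM in untreated dHL-60, with 51.2 CPM in treated and 51.6 CPM in untreated uHL-60 (-1.68 ± 0.32 log2, adjusted p = 0.0176). FAM201A, a long non-coding RNA gene, had 6.22 and 8.03 CPM in treated dHL-60 and 20.7 and 22.1 CPM in untreated dHL-60, with 15.0 CPM in treated and 13.5 CPM in untreated uHL-60 (-1.74 ± 0.38 log2, adjusted p = 0.0372). NOG and MZB1 were lost without any of the 4 libraries (adjusted p 0.0583 to 0.172), SPON2 and FAM201A without either untreated library or LTA replicate 1 (0.0864 to 0.151), and ANO7 without untreated replicate 2 (0.0607) or LTA replicate 1 (0.0752). MZB1 was also lost with DESeq2 (0.0745) and SPON2 with upper-quartile scaling (0.0509).

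The same interaction at 4 h, on other libraries, was called for 1303 genes (10.3%), 684 higher (5.43%) and 619 lower (4.91%). The difference between the times, the interaction at 24 h minus that at 4 h, was called for 248 genes (1.97%), 150 higher at 24 h (1.19%) and 98 lower (0.778%). CCL5 had 3.52 ± 0.27 log2 at 4 h and 3.27 ± 0.28 at 24 h, and KIT -2.62 ± 0.30 at 4 h and -1.99 ± 0.30 at 24 h, and for neither was the difference called (adjusted p = 0.873 and 0.58). NFKB1 had 2.49 ± 0.22 log2 at 4 h and 0.73 ± 0.22 at 24 h, a called difference of -1.76 ± 0.31 (adjusted p = 0.012). For SOD2 the values were 3.69 ± 0.37 at 4 h and 1.86 ± 0.37 at 24 h, and for TLR2 2.63 ± 0.28 at 4 h and 1.23 ± 0.28 at 24 h, with differences short of the threshold (adjusted p = 0.0945 and 0.0875).

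Several genes were called at 24 h and not at 4 h, and their difference between the times was called too. S100A9 had -0.13 ± 0.31 log2 at 4 h and 2.54 ± 0.32 at 24 h (adjusted p of the difference = 0.0105), and S100A8 -0.15 ± 0.33 at 4 h and 2.47 ± 0.34 at 24 h (0.0128). HK1 had -1.04 ± 0.41 log2 at 4 h and 2.20 ± 0.41 at 24 h (0.0122), PARP9 -0.70 ± 0.31 at 4 h and 1.55 ± 0.30 at 24 h (0.0167), ITGAM -0.55 ± 0.37 at 4 h and 1.59 ± 0.32 at 24 h (0.0396) and CCND3 0.42 ± 0.24 at 4 h and 1.86 ± 0.24 at 24 h (0.0454). NKG7 was called at both times and was higher at 24 h, with 1.19 ± 0.34 log2 at 4 h and 4.04 ± 0.35 at 24 h (0.011). For S100A9 the control level differed between the times. Treated dHL-60 had 2679 and 2689 CPM at 4 h and 2697 and 2799 CPM at 24 h, while untreated dHL-60 had 2665 and 1765 CPM at 4 h and 470 and 454 CPM at 24 h. The treated level was thus alike at both times, and the untreated level was the one that was lower at 24 h.

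**Figure D4:**
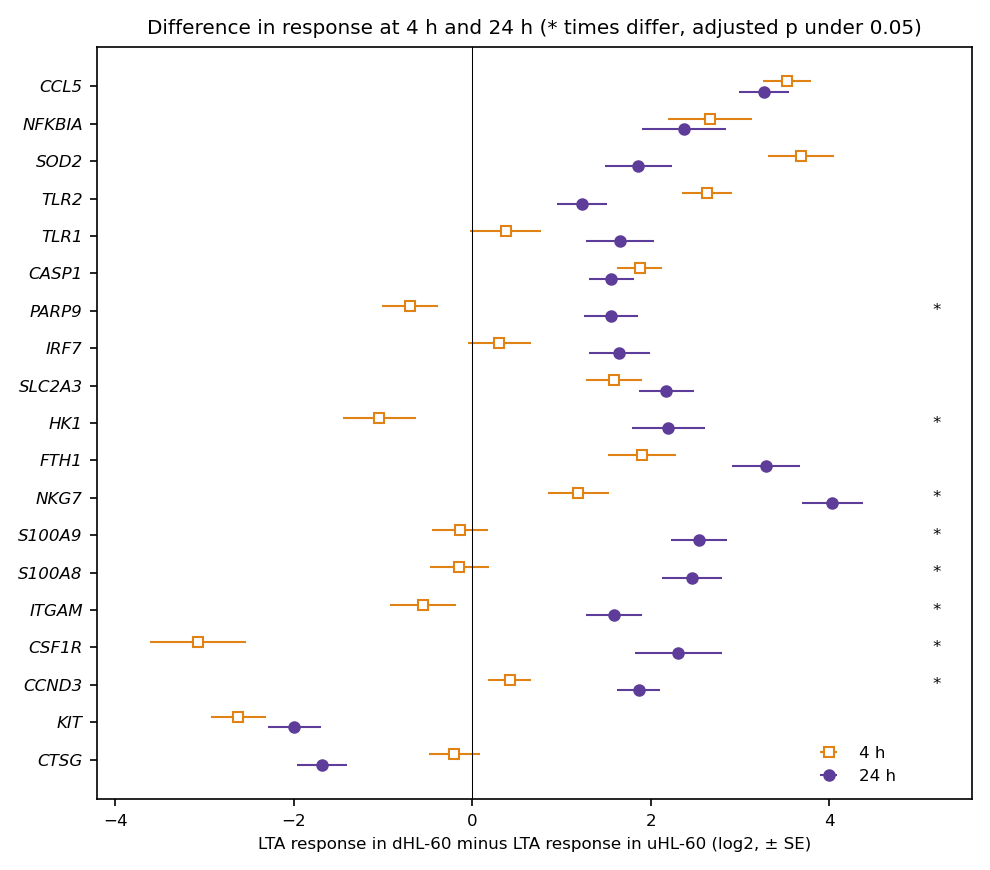
Interaction (LTA response in dHL-60 minus LTA response in uHL-60, log2 ± SE) of 19 named genes at 4 h (open squares) and 24 h (filled circles), with an asterisk where the times differed at an adjusted p under 0.05. S100A8, S100A9, HK1, PARP9, ITGAM and CSF1R are at or below 0 at 4 h and above 0 at 24 h, while CCL5 lies above 3 at both times.

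By size, the gene whose interaction gained most between the times was CSF1R, with -3.07 ± 0.54 log2 at 4 h and 2.31 ± 0.49 at 24 h, a difference of 5.38 ± 0.73 (adjusted p = 0.00414). It had 11.8 and 9.53 CPM in treated dHL-60 and 71.9 and 43.4 CPM in untreated dHL-60 at 4 h, so LTA lowered it at 4 h and raised it at 24 h. CD1D, which presents lipid antigens, had a difference of 5.19 ± 0.62 (adjusted p = 0.00181), and LILRA1, a leukocyte Ig-like receptor, 4.52 ± 0.68 (0.00526). Both came from 4 h, when treated dHL-60 had 0.746 and 1.02 CPM of CD1D and untreated dHL-60 23.1 and 24.2 CPM, while at 24 h their interactions were 0.45 ± 0.41 for CD1D and 0.41 ± 0.45 for LILRA1 and not called. CCR2, the receptor of CCL2, had a difference of 4.35 ± 0.84 (adjusted p = 0.0167), with -2.52 ± 0.60 at 4 h and 1.83 ± 0.59 at 24 h, and 0.0503 without untreated replicate 1 at 24 h. PXN, the focal adhesion protein paxillin, had a difference of 4.57 ± 1.04 (adjusted p = 0.0396), with an interaction of 3.32 ± 0.65 at 24 h (adjusted p = 0.0161). Its difference was lost without either untreated library at 24 h or LTA replicate 2 (0.0556 to 0.0701).

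In the other direction, ZBTB10, a zinc finger gene, had a difference of -3.69 ± 0.71 (adjusted p = 0.0166), NMNAT3, a mitochondrial enzyme of NAD synthesis, -3.66 ± 0.58 (0.00841) and PTGER2, a prostaglandin E2 receptor, -3.50 ± 0.60 (0.011). All were raised by LTA in dHL-60 at 4 h. PTGER2, for example, had 160 and 134 CPM in treated dHL-60 and 16.2 and 12.8 CPM in untreated dHL-60 at 4 h, and 14.2 and 8.69 CPM in treated and 8.61 and 11.2 CPM in untreated dHL-60 at 24 h. At 24 h their interactions were -0.28 ± 0.50 for ZBTB10, -0.53 ± 0.39 for NMNAT3 and 0.08 ± 0.43 for PTGER2, none of them called. TBC1D3E (-5.41 ± 1.26, adjusted p = 0.0254) and FAM72D (at least 7.15 lower on the log2 scale, adjusted p = 0.000824) also appear here. FAM72D had 0 counts in treated and 146 counts in untreated uHL-60 at 4 h, and 152 counts in treated and 34 counts in untreated uHL-60 at 24 h, and like TBC1D3E it is uncertain because of its copies. TBC1D3E was lost without untreated replicate 1 (0.0701) or LTA replicate 2 (0.0556) at 24 h.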

How the data were processed

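The deposited values are raw counts per gene symbol, without normalization. Per the labels' protocols, libraries were made from total RNA with a stranded mRNA kit. The submitters' processing notes list, without their roles, the tools HISAT2 2.1.0, fastp 0.20.0, Subread, featureCounts 2.0.1, edgeR 3.36.0 and DESeq2 1.28.0 and the build GRCh38. No source used here states how strand was handled, so overlapping and near-identical genes are uncertain. Library totals ran from 9653374 to 20157081 counts.

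Of 23575 symbols, the uHL-60 columns of 1343 stand in another sort order. After realignment to plain character order, the correlation of untreated dHL-60 and uHL-60 across these symbols was 0.904, against 0.252 as deposited, and 0.949 for symbols that did not move. Genes named by the rule below came from 20961 symbols that did not move, are annotated in GENCODE and share at most 10% of exon bases with another listed gene on the same strand. Coordinates are those of RefSeq on GRCh38.

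Contrasts were tested with edgeR 4.0.16 under R 4.3.3 (two-sided quasi-likelihood test) over all 16 libraries in 10 groups with 6 residual degrees of freedom, all from dHL-60 pairs, with TMM scaling and filterByExpr, and adjusted by Benjamini-Hochberg over 12603 genes at 0.05. Errors of log2 changes are SE. The uHL-60 response had no test: its log2 ratio used a prior count of 2, its fold an exact binomial interval of 95%. Groups at 0 were set to a floor of 3 counts over the group. Intervals and floors cover counting error only. DESeq2 1.42.0, other scalings, no filter, a replicate block, each library left out and other sets of symbols or libraries were alternatives. The pairs of libraries at 24 h differed by more than counting noise (chi-square per degree of freedom 15.0 for untreated and 11.6 for treated dHL-60).

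Named genes were the 10 largest called interactions in each direction with at least 10 counts in each cell state and 5 CPM in a group, up to 3 called members of each list, 7 genes always given, and the 5 largest called differences between the times in each direction. Further list members are named as background to their list and were chosen after their values were seen. The 23 lists hold 545 genes, of which 477 were tested. Some list members, counted with their lists, are not reported here by name. Genes, lists and rules were chosen with earlier results of these data known. The fits were also run on simulated data in which uHL-60 libraries varied like dHL-60 replicates. That run therefore cannot check this assumption about uHL-60.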

Additional observations from a re-analysis of the deposited data

Results flagged for a closer look

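The responses of dHL-60 and uHL-60 differed by the test of the difference itself for 170 genes higher and 35 lower at 24 h, and the difference changed between 4 h and 24 h for 150 genes higher and 98 lower. The genes named by size among them carry the same flag, and their libraries are given in the report.

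The response, not the level, was higher in dHL-60 at 24 h for JAK3 (7.48 log2), POU2F2 (7.28), IL7R (5.98), CES1 (5.26), ANXA2 (4.77), SRC (4.57), NKG7 (4.04) and LAMB3 (3.87), with TBC1D3L at least 4.90 and SERPINB9 at least 4.14. It was lower in dHL-60 for TBC1D3E (-5.80 log2), NOG (-3.55), PLD4 (-2.94), SPON2 (-2.79), SDK2 (-2.56), MZB1 (-2.27), KIT (-1.99), FAM201A (-1.74), ANO7 (-1.68) and CTSG (-1.68).

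Between the times, the difference was higher at 24 h for CSF1R (5.38 log2), CD1D (5.19), PXN (4.57), LILRA1 (4.52) and CCR2 (4.35), and lower for FAM72D (-7.15 at the floor, a bound), TBC1D3E (-5.41), ZBTB10 (-3.69), NMNAT3 (-3.66) and PTGER2 (-3.50). For TBC1D3L, TBC1D3E and FAM72D the uHL-60 libraries carry the difference, and these genes have near-identical copies.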

How the results depend on the processing

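For the 24 h interaction (170 higher, 35 lower), the calls numbered 491 and 161 with no filter on low counts, 320 and 77 with DESeq2, and 448 and 158 with the 6 libraries at 24 h only, where 2 residual degrees of freedom are left. With the replicate number as a block there were 288 and 67. Same-numbered deviations of treated and untreated dHL-60 at 24 h correlated at -0.0627, but the 3 pairs of groups at 4 h, which share in the spread, at 0.123 to 0.333, and all 15 pairs at -0.166 to 0.333. The numbers were not taken to pair the libraries, and the block ended no 24 h call. Without each replicate in turn they ranged from 77 to 185 higher and 11 to 37 lower, of which 76 to 143 and 10 to 20 were among the calls of the full fit. Of the 50 named genes called at 24 h, 23 stayed called without each of the 4 libraries. Other scalings, the uHL-60 columns as deposited and the kept symbols gave 150 to 197 higher and 30 to 43 lower.

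The dHL-60 response (1589 and 927) ranged without each replicate in turn from 910 to 1272 higher and 215 to 499 lower. The difference between the times (150 and 98) numbered 378 and 275 with no filter, 243 and 196 with DESeq2, 198 and 122 with the block, and 79 to 214 and 45 to 106 without each replicate in turn. The interaction at 24 h, not called, changed sign for ZBTB10 (-0.48 to 0.028 without each replicate in turn, 0.028 without untreated replicate 1) and PTGER2 (-0.29 to 0.42, with -0.071 without untreated replicate 1 and -0.29 without LTA replicate 1). The cause of these shifts was not tested. Genes past 2-fold in uHL-60 numbered 5 higher under every setting run and 5 lower, or 6 with a prior count of 0.5. Low counts of many genes in uHL-60 limit the comparison. At 24 h 1204 tested genes had under 10 counts there, and 0 of them were called, although 278 were called in dHL-60.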
